A study of Mus musculus with 12 samples.

Results

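The mitochondrial carriers of the Slc25 family and the uncoupling proteins were followed in mouse myeloid progenitor clones with and without Tafazzin. Members were all protein-coding genes whose symbol was Slc25a with a number, or Ucp1, Ucp2 or Ucp3. This gave 50 of the 37583 gene identifiers in the count files, and 39 of the 50 passed the low-count filter. The tested clones were 6 Taz knockout clones (3G to 3I with title number 3, 4J to 4L with number 4), set against 6 wild-type clones (1A to 1C with number 1, 2D to 2F with number 2). Clones of both genotypes were granulocyte-monocyte progenitors derived from fetal livers of C57BL/6 mice at embryonic day 15.5. All were immortalized with a retroviral ER-Hoxb8 fusion, which is active only in the presence of estradiol, and grew in 0.5 µM estradiol with stem cell factor equivalent to about 50 ng/ml. Every sample was a single-cell clone, 3 clones carry each number in the titles, and the labels do not say whether clones with the same number share an embryo or a parent line. If they do, p-values over 12 clones are too small.

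SLC25 carriers are nuclear-encoded proteins, most of them in the inner mitochondrial membrane, that exchange nucleotides, phosphate, organic acids, amino acids and cofactors between the cytosol and the matrix. They share a fold built from repeats of paired transmembrane helices. Tafazzin remodels the acyl chains of cardiolipin, the phospholipid of that membrane, and cardiolipin binds tightly to the ADP/ATP carrier. In blood cells Ucp2 is the main uncoupling-family member, known for export of four-carbon acids from the matrix and for limiting pyruvate oxidation.

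Reads counted in genes ranged between 18970252 and 27431544 per clone. Taz checked the labels. It averaged 3.35 CPM ± 0.685 in knockout clones and 39.2 CPM ± 2.58 in wild-type clones (SD, n = 6 each), where CPM are TMM-scaled counts-per-million values. The labels do not say how Taz was disrupted. The progenitor markers Kit, Cd34 and Mpo were high in all 12 clones, and the lowest Kit level was 516 CPM. Markers of other cell types were uneven, and some were abundant in every clone. The 8 mast cell and basophil genes summed to 2821 to 5598 CPM in knockout clones and 1646 to 4954 CPM in wild-type clones. For 10 monocyte and macrophage genes the sums were 1158 to 2019 CPM in knockout clones and 820 to 2334 CPM in wild-type clones. The sum of 10 mature neutrophil genes lay between 15.9 and 145 CPM in knockout clones and between 22.1 and 1538 CPM in wild-type clones, with the highest sum in clone 2D. Clone 1A had the highest sum of 10 erythroid genes, 115 CPM. The 5 fetal hepatocyte genes summed to 142 CPM in knockout clone 3G and to at most 3.31 CPM in each other clone. The 7 lymphoid genes summed to between 2.04 and 4.00 CPM in knockout clones, below the range of 5.89 to 63.5 CPM in wild-type clones, and Cd3e was at 0 in all clones. Their part in the carrier results was not tested beyond the fits without those clones that are given beside the results. In bulk RNA, fewer cells of a type and less RNA per cell cannot be told apart.

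Of the 39 tested carriers, 4 were called between the genotypes. Ucp2, Slc25a1 and Slc25a10 were lower in knockout clones and Slc25a33 was higher. A gene was called when its adjusted p was under 0.05 in edgeR's quasi-likelihood test with Benjamini-Hochberg adjustment over all 11819 genes tested. The 4 members make up 10.3% of those tested, near the 7.94% called among all genes tested, so the count alone does not set the family apart. By direction, 1 of 39 was higher against 3.99% of all genes, and 3 of 39 were lower against 3.94%. The median log2 fold change was -0.03 over the 39 members and -0.0066 over all genes. In 27 members the log2 fold change was smaller than 0.2 in size. A further 6 members had an unadjusted p under 0.05 without a call, and 23.7% of all genes had an unadjusted p under 0.05. The summed level of all 50 members was 3401 CPM ± 94.3 in knockout clones and 3748 CPM ± 46.4 in wild-type clones. Without Ucp2 the sums were 2970 CPM ± 78.0 in knockout clones and 3089 CPM ± 45.2 in wild-type clones (SD, n = 6 each).

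**Figure D1:**
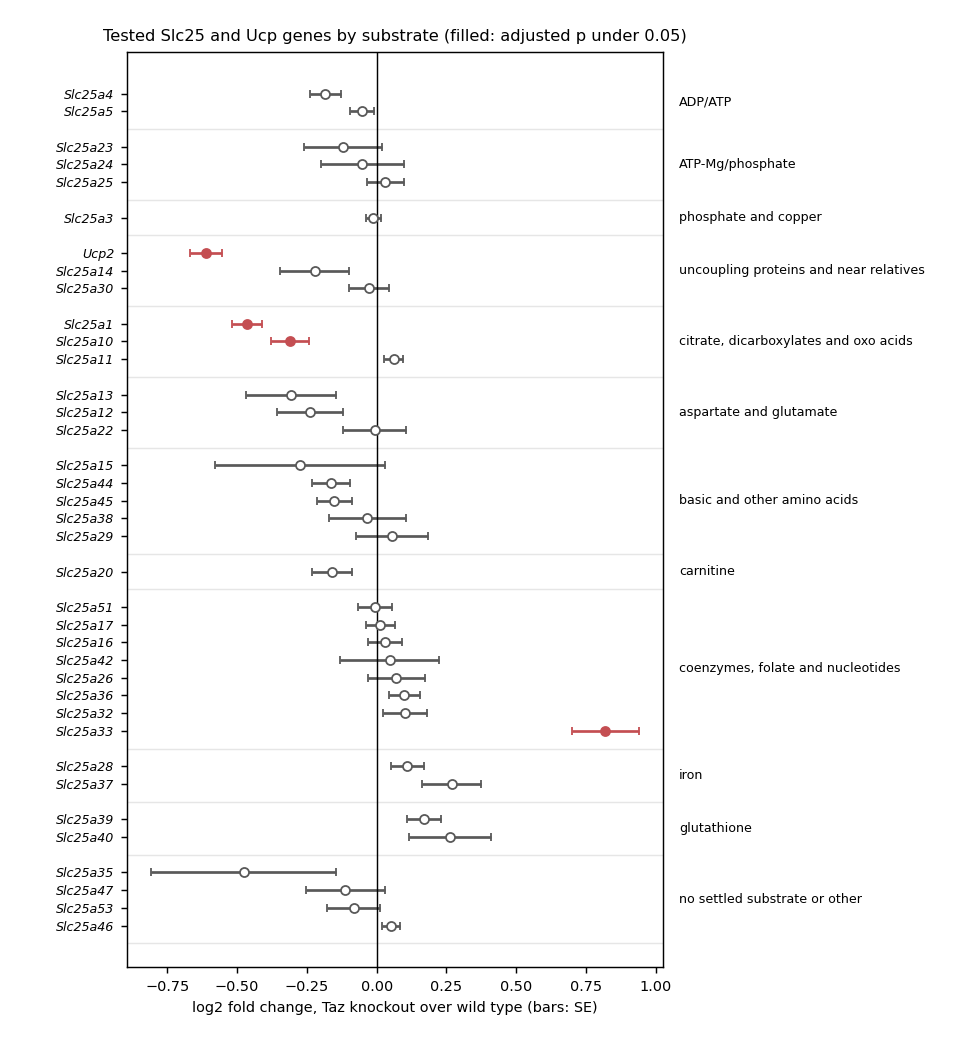
Log2 fold change (Taz knockout over wild type) of the tested carriers reported here on the horizontal axis, grouped by substrate, with bars for the SE from edgeR's fit. Filled points are the 4 called genes, of which Slc25a33 lies at 0.82 and Ucp2 at -0.61. Slc25a43, at 0 counts in 6 clones, is not drawn.

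Ucp2 had the smallest adjusted p of the family. Its level was, in knockout clones 404 CPM in 3G, 445 CPM in 3H, 418 CPM in 3I, 453 CPM in 4J, 468 CPM in 4K and 404 CPM in 4L, against, in wild-type clones, 626 CPM in 1A, 695 CPM in 1B, 675 CPM in 1C, 581 CPM in 2D, 725 CPM in 2E and 655 CPM in 2F. Knockout clones had a median of 432 CPM and wild-type clones one of 665 CPM. The 2 groups did not overlap, and the lowest wild-type clone was 2D. In edgeR's fit the log2 fold change had a value of -0.61 (SE 0.06, adjusted p = 0.000336), a level 0.655 times that of wild type. Counts behind these values were between 7683 and 10660 in knockout clones and between 13423 and 19632 in wild-type clones. Ucp2 was called in each of the 4 comparisons of 1 knockout title number with 1 wild-type title number, with log2 fold changes between -0.66 and -0.57. Of the members, 3 were called in number 3 against 1 (1.57% of all genes), 1 in 3 against 2 (0.719%), 3 in 4 against 1 (0.508%) and 1 in 4 against 2 (0.262%). These comparisons share clones, and 0.203% of all genes were called with the same sign in all of them. Without clones 1A and 2D the log2 fold change was -0.67 for Ucp2, -0.48 for Slc25a1, -0.24 for Slc25a10 and 0.99 for Slc25a33, and all 4 stayed called (largest adjusted p = 0.0402 by edgeR). Leaving out these clones was a choice made after seeing the data. They are the 2 lowest wild-type clones for Ucp2 and the 2 highest for Slc25a33, so leaving them out by itself widens those differences. For Slc25a10 they are the 2 highest, which by itself narrows the difference. Reads were counted without strand, and transcripts of Ucp2 overlap those of Dnajb13, a gene on the opposite strand. Dnajb13 was at 1.19 CPM ± 0.317 in knockout clones and 2.12 CPM ± 0.283 in wild-type clones (log2 fold change -0.83, adjusted p = 0.0216). Reads of the overlap cannot be told apart between the 2 genes, and Dnajb13 was far less abundant. Reads that HTSeq set aside as ambiguous between genes, 1.53% to 1.65% of records, are in neither count.

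The other uncoupling-family genes were low or not called. Ucp1, the thermogenic protein of brown fat, had 0 counts in all 12 clones. Ucp3, the muscle form, had at most 2 counts in any clone. Slc25a30, a near relative, was at 16.2 CPM ± 1.18 in knockout clones and 16.5 CPM ± 1.44 in wild-type clones (log2 fold change -0.03, SE 0.07). Slc25a14 was at 5.30 CPM ± 0.548 in knockout clones and 6.19 CPM ± 0.973 in wild-type clones (edgeR's adjusted p = 0.303). Slc25a27, best known from brain, stayed below the low-count filter. Its counts were 18 in 3G, 17 in 3H, 9 in 3I, 42 in 4J, 1 in 4K and 22 in 4L, against 0 in 1A, 5 in 1B, 3 in 1C, 5 in 2D, 3 in 2E and 0 in 2F. Clone 4K lay within the wild-type range, and the other 5 knockout clones lay above every wild-type clone. These counts are a description, as the gene was singled out after its values were seen.

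The promoter windows of the 4 called carriers are shown because they were searched for elements of the stress, sterol and mitochondrial programs. Each holds 250 bases before and 50 bases after the gene's start, from RefSeq on GRCm38.p6, written 5′ to 3′ along the gene. That build is not the mm9 of the count files. Capitals mark motif matches.
Ucp2, chr7:100493108-100493407, plus strand: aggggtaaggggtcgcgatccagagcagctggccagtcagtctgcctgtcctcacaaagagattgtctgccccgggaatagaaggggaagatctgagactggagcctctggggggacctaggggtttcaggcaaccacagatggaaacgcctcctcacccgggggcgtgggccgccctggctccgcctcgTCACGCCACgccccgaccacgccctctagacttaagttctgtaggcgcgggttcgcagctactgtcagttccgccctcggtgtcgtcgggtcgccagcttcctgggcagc
Slc25a1, chr16:17928170-17928469, minus strand: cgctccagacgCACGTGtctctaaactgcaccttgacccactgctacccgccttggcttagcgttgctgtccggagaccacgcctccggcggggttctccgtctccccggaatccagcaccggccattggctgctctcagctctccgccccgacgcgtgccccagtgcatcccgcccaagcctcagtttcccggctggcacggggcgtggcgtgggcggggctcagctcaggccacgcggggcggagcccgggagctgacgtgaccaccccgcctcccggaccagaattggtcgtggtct
Slc25a10, chr11:120491587-120491886, plus strand: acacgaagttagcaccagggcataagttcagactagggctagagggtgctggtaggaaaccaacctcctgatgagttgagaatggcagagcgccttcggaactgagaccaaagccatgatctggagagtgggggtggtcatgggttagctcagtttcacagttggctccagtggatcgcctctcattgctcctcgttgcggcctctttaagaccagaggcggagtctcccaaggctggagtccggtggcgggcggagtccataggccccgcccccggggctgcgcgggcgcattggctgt
Slc25a33, chr4:149774218-149774517, minus strand: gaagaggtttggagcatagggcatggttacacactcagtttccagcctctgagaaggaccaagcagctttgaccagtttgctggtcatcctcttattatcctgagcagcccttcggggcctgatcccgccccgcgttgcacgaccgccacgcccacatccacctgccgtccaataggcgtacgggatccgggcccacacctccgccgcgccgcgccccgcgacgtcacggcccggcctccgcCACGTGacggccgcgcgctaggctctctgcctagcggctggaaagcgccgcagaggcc

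The motifs searched were TGATGNAA for ATF4, CACGTG for the E-box, the palindromic NRF1 element, TCAAGGTCA for the ERR receptors and TCACNCCAC for a sterol element, on both strands. The E-box letters read the same on both strands and were counted once per site. In the Ucp2 window TCACGCCAC, a match to the sterol element letters, began 60 bases before the start. That motif was in 1.24% of all 32851 windows. E-box letters began 8 bases before the start of Slc25a33 and 239 bases before that of Slc25a1, and 7.15% of all windows held an E-box. The Slc25a10 window held none of the 5 motifs. Of the 31 tested members with a window, 6 held an E-box, 1 held the sterol element and 0 held the ATF4, NRF1 or ERR letters. A member was counted if any of its windows matched, and the 39 members with a window, tested or not, had 49 windows. The shares given are per window, so the counts per member cannot be set against them. The shares over all windows were 3.97% for the ATF4 letters, 0.971% for NRF1 and 0.423% for ERR. These are matches of letters and say nothing about binding.

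**Figure D2:**
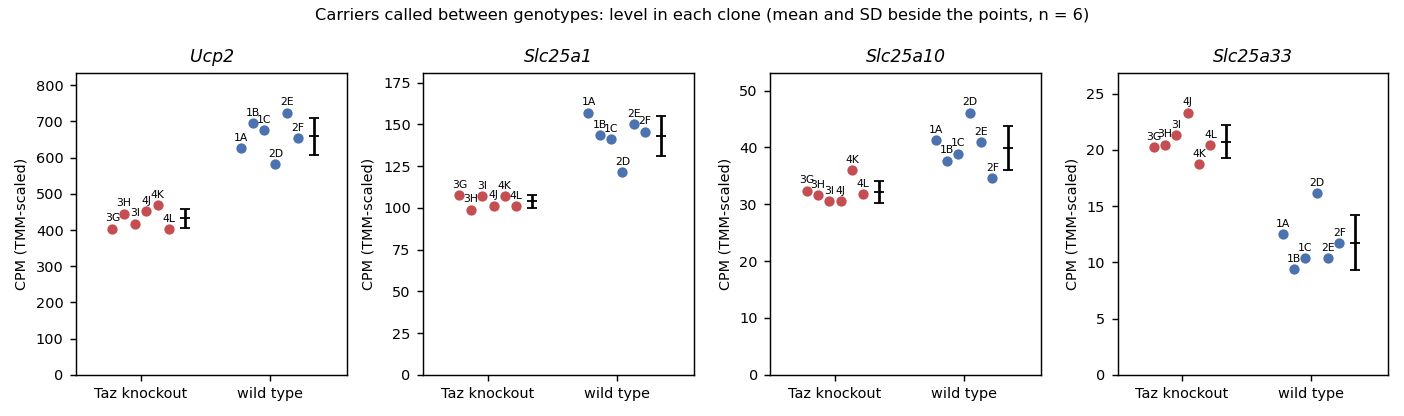
Level of the 4 called carriers in each clone in CPM after TMM scaling, Taz knockout in red and wild type in blue, with the mean and SD (n = 6) beside the points. Knockout clones lie below all wild-type clones for Ucp2 and Slc25a1 and above them for Slc25a33, while for Slc25a10 clone 4K lies above wild-type clone 2F.

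Of the 4 carriers of organic acids 3 were tested, and 2 were called, both lower. Over all genes tested, 3.94% were called lower. A count over 3 genes is a description and does not set the group apart. Slc25a1 exports citrate, from which the cytosol makes acetyl-CoA for fatty acids and sterols. Its level was in knockout clones 107 CPM in 3G, 99 CPM in 3H, 107 CPM in 3I, 101 CPM in 4J, 107 CPM in 4K and 101 CPM in 4L, against, in wild-type clones, 157 CPM in 1A, 144 CPM in 1B, 141 CPM in 1C, 121 CPM in 2D, 150.3 CPM in 2E and 146 CPM in 2F. The genotypes did not overlap, and clone 2D was again the lowest wild-type clone. EdgeR put the log2 fold change at -0.46 (SE 0.05, adjusted p = 0.000578). Slc25a10, which exchanges malate and succinate for phosphate, was in knockout clones 32.4 CPM in 3G, 31.6 CPM in 3H, 30.5 CPM in 3I, 30.6 CPM in 4J, 36 CPM in 4K and 31.9 CPM in 4L, against, in wild-type clones, 41.2 CPM in 1A, 37.7 CPM in 1B, 38.9 CPM in 1C, 46.1 CPM in 2D, 41 CPM in 2E and 34.6 CPM in 2F. Here clone 4K, the highest knockout clone, lay above 2F, the lowest wild-type clone. The log2 fold change was -0.31 (SE 0.07, adjusted p = 0.0176 by edgeR), and the call was lost when counts were summed by title number (adjusted p = 0.0689). It was not called in any of the 4 comparisons of single title numbers (adjusted p between 0.149 and 0.335). Against wild-type number 2, Slc25a1 was not called either (adjusted p = 0.0527 for knockout number 3 and 0.0688 for number 4). Slc25a11, the oxoglutarate-malate exchanger, was at 99.5 CPM ± 2.24 in knockout clones and 95.4 CPM ± 4.77 in wild-type clones (log2 fold change 0.06, SE 0.03, adjusted p = 0.32). Slc25a21, the oxoadipate carrier, had 9 counts in 1A, 1 in 4K and 0 in the other clones.

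Of the 9 carriers of coenzymes, folate and nucleotides, all tested, Slc25a33 was called higher and none lower. Slc25a33 imports pyrimidine nucleotides for the synthesis of mitochondrial DNA and RNA. Its level was in knockout clones 20.2 CPM in 3G, 20.5 CPM in 3H, 21.3 CPM in 3I, 23.3 CPM in 4J, 18.7 CPM in 4K and 20.4 CPM in 4L, against, in wild-type clones, 12.5 CPM in 1A, 9.38 CPM in 1B, 10.4 CPM in 1C, 16.2 CPM in 2D, 10.4 CPM in 2E and 11.7 CPM in 2F. The groups did not overlap, and 2D was the highest wild-type clone. The log2 fold change was 0.82 (SE 0.12, adjusted p = 0.00243 by edgeR), a level 1.76 times that of wild type. Against wild-type number 2 alone it was not called (adjusted p = 0.108 for knockout number 3 and 0.122 for number 4). Slc25a36, which carries the same class of nucleotides, was at 62.1 CPM ± 4.82 in knockout clones and 58.0 CPM ± 2.85 in wild-type clones (log2 fold change 0.10, SE 0.06, adjusted p = 0.308). Within a clone, Slc25a33 made up 25.1% ± 0.841 of the CPM of both genes in knockout clones and 16.9% ± 3.55 in wild-type clones. Exons of Slc25a33 overlap the antisense gene Gm13068, which averaged 0.120 CPM in knockout clones and 0.0381 CPM in wild-type clones.

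The other coenzyme carriers given here differed by at most 0.10 in log2 fold change, and none passed the test. Slc25a51, the NAD carrier, averaged 117 CPM ± 6.78 in knockout clones and 117 CPM ± 10.7 in wild-type clones (log2 fold change -0.0044, SE 0.06). Slc25a17, a carrier of the peroxisomal membrane, was at 80.4 CPM ± 5.28 in knockout clones and 79.6 CPM ± 4.84 in wild-type clones. Slc25a32, which brings folate into the matrix, was at 31.5 CPM ± 2.71 in knockout clones and 29.3 CPM ± 3.21 in wild-type clones (adjusted p = 0.484 by edgeR). Slc25a16 and Slc25a42, both linked to coenzyme A, and Slc25a26 for S-adenosylmethionine had log2 fold changes between 0.03 and 0.07.

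None of the phosphate and adenine nucleotide carriers was called. Slc25a3 imports the phosphate used by ATP synthase and also carries copper. It was among the steadiest genes of the data, at 676 CPM ± 13.8 in knockout clones and 681 CPM ± 19.1 in wild-type clones (log2 fold change -0.01, SE 0.03, adjusted p = 0.841 by edgeR). Only 0.626% of tested genes had a smaller spread within genotypes. Slc25a5, the ADP/ATP carrier of dividing cells, was at 351 CPM ± 12.3 in knockout clones and 363 CPM ± 22.5 in wild-type clones (log2 fold change -0.05, SE 0.04). Its level is uncertain, since 33.8% of the 50-base words of its transcripts also occur in transcripts of other genes, mainly processed pseudogenes, and reads that align to several places were left out of the counts.

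Slc25a4, the ADP/ATP carrier of heart and muscle, lay just outside the threshold. It ran from 163 to 169 CPM with a median of 165 CPM in knockout clones, against 173 to 222 CPM with a median of 181 CPM in wild-type clones. The groups did not overlap. That held for 4 tested members, 1 higher and 3 lower, or 10.3%, and for 5.38% of all tested genes, with 2.54% higher and 2.84% lower. The log2 fold change was -0.18 (SE 0.06, adjusted p = 0.0663 by edgeR), and DESeq2 called the gene (adjusted p = 0.0235). The highest wild-type value was that of 2D, and without that clone the log2 fold change was -0.13 (adjusted p = 0.0463). Without both 1A and 2D, a choice made after seeing the data, the log2 fold change of Slc25a4 was -0.15 (adjusted p = 0.0357). Over the fits that each left out 1 clone, its adjusted p ranged between 0.0453 and 0.129. Within a clone, Slc25a4 made up 32.1% ± 0.608 of the CPM of Slc25a4 and Slc25a5 in knockout clones and 34.1% ± 2.30 in wild-type clones, and these ranges overlapped. Slc25a31, the testis form, had 0 counts in all clones.

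The calcium-regulated ATP-Mg/phosphate carriers Slc25a24, Slc25a23 and Slc25a25 had log2 fold changes of -0.05, -0.12 and 0.03. Slc25a24 was at 76.3 CPM ± 16.1 in knockout clones and 79.1 CPM ± 12.3 in wild-type clones, and Slc25a23 at 33.8 CPM ± 6.05 in knockout clones and 36.8 CPM ± 7.04 in wild-type clones. Slc25a41 and Slc25a54 had at most 1 count in any clone.

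Levels between genes can be compared only per length. By union exon length, Slc25a5 led the family at 853 TPM ± 42.6 over the 12 clones (SD), TPM being counts per base of length, scaled to the same total in each clone. Slc25a3 followed at 481 TPM ± 10.8, then Ucp2 at 307 TPM ± 70.9, Slc25a4 at 296 TPM ± 26.3, Slc25a39 at 288 TPM ± 26.5 and Slc25a1 at 225 TPM ± 40.8. Over the 12 clones the spreads of Ucp2, Slc25a4 and Slc25a39 overlapped, but by union exon length Ucp2 changed place between genotypes. In knockout clones Ucp2 was at 227 to 268 TPM, below all values of Slc25a4 (272 to 283 TPM) and Slc25a39 (280 to 332 TPM). In wild-type clones it was at 319 to 413 TPM, above all values of Slc25a39 (254 to 308 TPM). Slc25a4 was at 290 to 361 TPM there and overlapped Ucp2. The order of Slc25a5 and Slc25a3 depends on the length used. By the length of the principal transcript Slc25a3 stood at 1086 TPM and Slc25a5 at 743 TPM. The place of Ucp2 depends on the length as well. By the principal transcript Ucp2 averaged 353 TPM and Slc25a4 237 TPM over the 12 clones. By the longest transcript these means were 399.98 and 269 TPM. The change of place between genotypes is therefore given for union exon length only. The SD of Ucp2 and Slc25a1 includes the difference between genotypes.

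**Figure D3:**
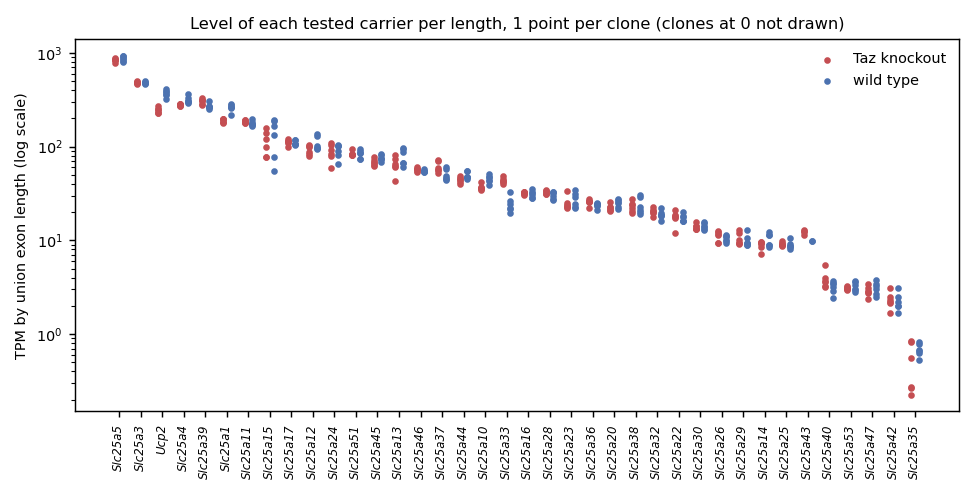
TPM by union exon length on a log axis for the tested carriers reported here in falling order of their mean, 1 point per clone, Taz knockout in red left of wild type in blue. Slc25a5 (853 TPM) and Slc25a3 (481 TPM) lead, and Slc25a35 (0.591 TPM) is the lowest. Clones at 0 are not drawn, which concerns Slc25a43.

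Amino acid carriers were not called, and several varied widely among clones. Slc25a12 and Slc25a13 exchange aspartate for glutamate in the malate-aspartate shuttle. Slc25a12 ran from 148 to 197 CPM with a median of 175 CPM in knockout clones, against 173 to 257 CPM with a median of 185 CPM in wild-type clones (log2 fold change -0.24, SE 0.12, adjusted p = 0.246 by edgeR). Clones 1A, at 257 CPM, and 2D, at 247 CPM, stood above all other clones of either genotype. Slc25a13 was at 61.6 CPM ± 12.7 in knockout clones and 76.2 CPM ± 15.4 in wild-type clones (log2 fold change -0.31, SE 0.16, adjusted p = 0.274). Of the glutamate carriers, Slc25a22 was at 26.4 CPM ± 4.43 in knockout clones and 26.6 CPM ± 2.67 in wild-type clones, and Slc25a18 had at most 5 counts in any clone.

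Slc25a15, the ornithine carrier, was the abundant member with the widest spread. It ran from 110 to 223 CPM with a median of 156 CPM in knockout clones, against 80.2 to 275 CPM with a median of 213 CPM in wild-type clones. The lowest wild-type values were those of 2D (80.2 CPM) and 1A (112 CPM), the clones in which Slc25a12 was highest. The same clones had the lowest wild-type sums of monocyte and macrophage markers (820 CPM in 2D and 857 CPM in 1A, the others 2013 to 2334 CPM), of mast cell and basophil markers (1646 CPM in 2D and 2090 CPM in 1A, the others 3571 to 4954 CPM) and of megakaryocyte markers (119.8 CPM in 2D and 176 CPM in 1A, the others 254 to 337 CPM). In knockout clones these sums were 1158 to 2019, 2821 to 5598 and 141 to 288 CPM. Their part in the levels of Slc25a15 and Slc25a12 was not tested. The genotypes overlapped widely (log2 fold change -0.27, SE 0.30, adjusted p = 0.636 by edgeR), and 86.8% of tested genes had a smaller spread within genotypes.

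Slc25a44, for branched-chain amino acids, was at 40.0 CPM ± 2.89 in knockout clones and 44.9 CPM ± 4.20 in wild-type clones (log2 fold change -0.16, SE 0.07, adjusted p = 0.165). Slc25a45 was at 47.9 CPM ± 4.05 in knockout clones and 53.2 CPM ± 3.55 in wild-type clones (log2 fold change -0.15, SE 0.06, adjusted p = 0.165). Slc25a38, which supplies glycine for haem synthesis, had a log2 fold change of -0.03 and Slc25a29, for basic amino acids, one of 0.05. Slc25a2 had at most 7 counts in any clone. Slc25a20, which exchanges acylcarnitine for carnitine in fatty acid oxidation, was at 27.5 CPM ± 2.40 in knockout clones and 30.7 CPM ± 2.60 in wild-type clones (log2 fold change -0.16, SE 0.07, adjusted p = 0.202 by edgeR).

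The iron and glutathione carriers had positive log2 fold changes in all 4 members, and none passed the test. Slc25a37, mitoferrin-1, brings iron into the matrix and is best known from erythroid cells. It was at 92.9 CPM ± 12.4 in knockout clones and 77.1 CPM ± 11.1 in wild-type clones (log2 fold change 0.27, SE 0.11, adjusted p = 0.143 by edgeR). Wild-type clones 2D and 1A were above the other wild-type clones, and leaving out both, a choice made after seeing the data that by itself lowers the wild-type mean, gave a log2 fold change of 0.41 (adjusted p = 0.0234). No fit that left out 1 clone called the gene (adjusted p between 0.0575 and 0.254). Slc25a28, mitoferrin-2, was at 31.1 CPM ± 1.38 in knockout clones and 28.8 CPM ± 2.39 in wild-type clones (log2 fold change 0.11, adjusted p = 0.287).

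Slc25a39, the more abundant glutathione importer, was at 214 CPM ± 15.1 in knockout clones and 190 CPM ± 15.9 in wild-type clones (log2 fold change 0.17, SE 0.06, adjusted p = 0.111 by edgeR). The wild-type SD rested on clone 2D at 222 CPM, as the other wild-type values were 179 to 187 CPM. The knockout range was 195 to 233 CPM. Without 2D the log2 fold change was 0.22 (adjusted p = 0.0153), and of the 12 fits that left out 1 clone this was the only one that called the gene. Over those fits the log2 fold change ranged between 0.15 and 0.22 and the adjusted p between 0.0153 and 0.220. Slc25a40, its relative, was at 8.16 CPM ± 1.72 in knockout clones and 6.80 CPM ± 1.02 in wild-type clones (log2 fold change 0.26, adjusted p = 0.311). Markers of mature neutrophils were highest in 2D, as given above, and their part in these values was not tested.

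**Figure D4:**
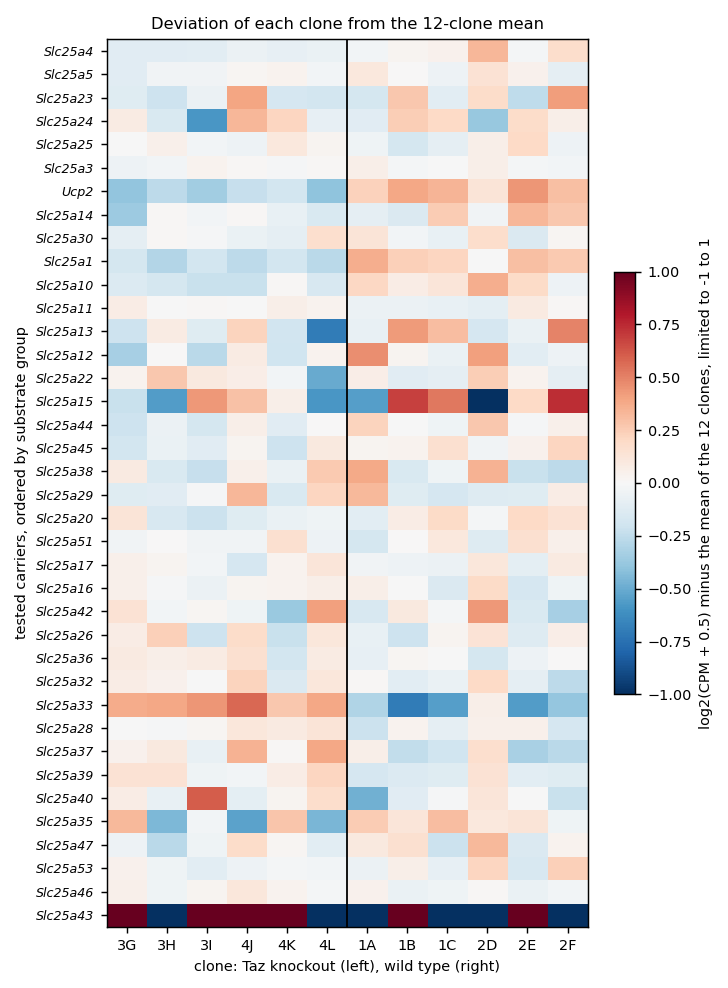
Deviation of each clone from the mean of the 12 clones in log2(CPM + 0.5), limited to the range of -1 to 1, for the tested carriers reported here, with Taz knockout clones left of the line and wild-type clones right of it. Ucp2 and Slc25a1 are blue in all 6 knockout clones, Slc25a33 is red in them, and Slc25a43 switches between clones within both genotypes.

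Among members with no settled substrate, Slc25a43 was either present or at 0. This X-linked gene was at 5.68 CPM in 3G, 5.48 CPM in 3I, 5.22 CPM in 4J and 5.67 CPM in 4K and at 0 in 3H and 4L, against 4.44 CPM in 1B, 4.39 CPM in 2E and 0 in 1A, 1C, 2D and 2F. Where it was detected, it had between 108 and 129 counts. A count of 0 allows at most 0.158 CPM in the shallowest library, by 3 counts of the total and for counting error only. Each of the 4 title numbers held clones with and without the gene. No fold change is given, as both genotypes held clones at 0. Its X-linked neighbour Slc25a5 was detected in all 12 clones, as given above, and the neighbour Akap17b averaged 10.6 CPM ± 2.41 in knockout clones and 9.83 CPM ± 2.64 in wild-type clones.

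Slc25a46, a protein of the outer mitochondrial membrane, was at 78.7 CPM ± 3.00 in knockout clones and 76.0 CPM ± 2.32 in wild-type clones (log2 fold change 0.05, SE 0.03, adjusted p = 0.389). Slc25a53, Slc25a47 and Slc25a35 were low, with log2 fold changes of -0.08, -0.11 and -0.48, and edgeR's adjusted p was at least 0.424 for each. Slc25a34 had at most 2 counts in any clone and Slc25a48 had 0 in all of them.

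**Figure D5:**
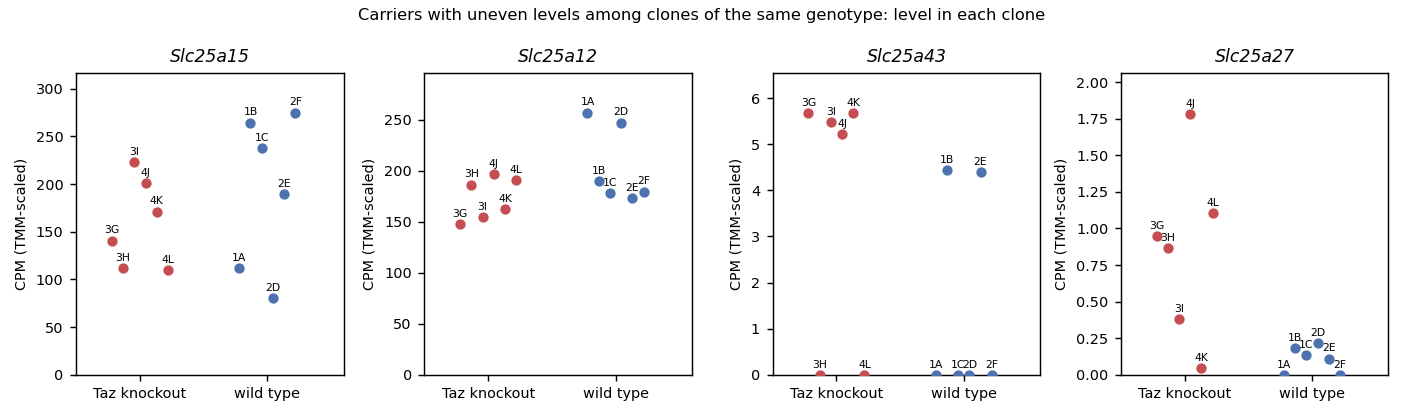
Level in each clone, in CPM after TMM scaling, of 4 carriers with uneven levels among clones of the same genotype, Taz knockout in red and wild type in blue. Slc25a15 spans 80.2 to 275 CPM within wild type, Slc25a12 is highest in 1A and 2D, Slc25a43 is at 0 in 6 of 12 clones, and Slc25a27 is low throughout.

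Differences between title numbers within a genotype were not detected for the carriers. Knockout clones numbered 4 were compared with those numbered 3, and wild-type clones numbered 2 with those numbered 1. For both, edgeR called 0 of the 39 members and 0 had an unadjusted p under 0.05. Over all genes edgeR also called 0, with 2.06% and 3.52% at an unadjusted p under 0.05. The median within-genotype SD of log2 CPM was 0.123 over the tested members and 0.150 over all tested genes.

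Other proteins that move metabolites and ions across mitochondrial membranes gave 2 higher and 2 lower genes of 30, all tested, which is 13.3%, against 7.94% of all genes tested (3.99% higher and 3.94% lower). Ghitm, a transmembrane protein of the inner membrane, rose to 499 CPM ± 40.0 in knockout clones, against 339 CPM ± 14.6 in wild-type clones (log2 fold change 0.56, SE 0.05, adjusted p = 0.000336 by edgeR). Vdac3, an outer membrane channel, rose by 0.22 on the log2 scale. Tmem14c, needed for haem synthesis, fell by 0.21 and Nnt, the proton-driven transhydrogenase that makes mitochondrial NADPH, fell by 0.29. The pyruvate carrier genes, the calcium uniporter genes and Mtch1 and Mtch2 were among those not called.

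Genes that make or use the carried substrates were called in 14 of 76 tested, or 18.4%, with 9 higher and 5 lower, where 7.94% of all genes tested were called, 3.99% higher and 3.94% lower. Acly, which splits the citrate that Slc25a1 exports, fell to 603 CPM ± 41.9 in knockout clones, against 762 CPM ± 35.4 in wild-type clones (log2 fold change -0.34, SE 0.05, adjusted p = 0.00207 by edgeR). Me2, the mitochondrial malic enzyme, fell by 0.17 on the log2 scale. On the carnitine side Crat fell by 0.41 and Cpt2 by 0.21. The higher genes with the smallest adjusted p were Gclc, of glutathione synthesis (log2 fold change 0.21), Pycr1 and Aldh18a1, of proline synthesis (1.37 and 0.47), and Mthfd2, of mitochondrial folate metabolism (0.80). Mthfd2 was at 309 CPM ± 28.0 in knockout clones and 178 CPM ± 54.8 in wild-type clones, beside a folate carrier, Slc25a32, that was not called. Both lists were chosen with earlier results of these data known, and their counts are descriptions.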

How the data were processed

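RNA from 12 clones was sequenced, 6 Taz knockout and 6 wild type. The authors deposited raw counts of reads per Ensembl gene. STAR, HTSeq, edgeR and the mm9 build are named per the submitters' processing notes, with no versions, and counting ignored strand, per the file names. The 5 HTSeq total lines were left out. Of all records, 42.8% to 44.9% aligned to more than 1 place, 3.06% to 3.93% lay outside genes and 1.53% to 1.65% were ambiguous between genes. Symbols came from GENCODE M21, a later build, which matched 32860 of 37583 identifiers.

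Tests used edgeR 4.0.16 in R 4.3.3 with TMM, filterByExpr by genotype and Benjamini-Hochberg adjustment. SE is the absolute log2 fold change over the square root of F. On counts simulated for this comparison over 11703 genes, 92.5% of 107 changes of 1 and 67.7% of 93 changes of 0.5 (log2) were recovered. The changed genes were drawn only above a floor of mean CPM, under which Slc25a35, Slc25a42, Slc25a43 and Slc25a47 lie. Clones were simulated as independent, so the recovery does not cover those members or clones that share an origin. Alternatives used DESeq2 1.42.0, voom of limma 3.58.1, other scalings and filters, sums by title number and fits without single clones. Named by a rule: Taz, each called member by clone, the 2 uncalled members of highest TPM in each group by mean and SD, and up to 8 called genes of each other list. Further members are given to account for the family, and Slc25a43 and Slc25a27 are given by clone, chosen after their values were seen. The members and lists were chosen with earlier results of these data known, among them the fall of Ucp2. Some items are not reported here. P-values set the difference between genotypes against the spread between these clones.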

Additional observations from a re-analysis of the deposited data

Results flagged for a closer look

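In groups of 6 clones, 78 sets of values were examined for a clone far from the rest, and 6 were found, where chance alone flags about 1 in 20. Clone 4K stood apart among knockout clones for Slc25a10 (36.0 CPM, the others 30.5 to 32.4), Slc25a51 (131 CPM, the others 113 to 117) and Slc25a36 (52.8 CPM, the others 62.4 to 66.9). Slc25a23 was high in knockout clone 4J (45.9 CPM, the others 30.1 to 33.4). Slc25a40 was high in knockout clone 3I (11.5 CPM, the others 6.84 to 8.39). Slc25a39 was high in wild-type clone 2D (222 CPM, the others 179 to 187).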

How the results depend on the processing

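Ucp2, Slc25a1 and Slc25a33 stayed called in the same direction when 1 clone was left out and with other scalings, filters and tools. With counts summed by title number they also stayed called, closer to the threshold. There edgeR's adjusted p was 0.0322 for Ucp2, 0.0346 for Slc25a1 and 0.0479 for Slc25a33. Slc25a10 lost its call with summed counts (log2 fold change -0.31, adjusted p = 0.0689). Against the 1 member called higher and 3 lower, voom with title numbers treated as a correlated block gave 3 and 5, adding Slc25a37, Slc25a39, Slc25a4 and Slc25a45. The correlation within blocks was negative, -0.1687, which lowers p-values, and with summed counts these 4 were not called (adjusted p = 0.169, 0.140, 0.172 and 0.192). Summed counts gave 2 higher, the second being Slc25a27, which passed the low-count filter there only through its knockout sums, so that call is no support. Without clones 1A and 2D, an alternative added after seeing the data, 3 were higher, adding Slc25a37 and Slc25a39. The same fit also called Slc25a4 lower (log2 fold change -0.15, adjusted p = 0.0357). In comparisons of a single knockout number with wild-type number 2, 0 were higher and 1, Ucp2, was lower, as Slc25a1, Slc25a10 and Slc25a33 lost their calls there. Leaving out 1 clone gave 1 to 2 higher and 3 to 4 lower. No paired analysis was possible because title numbers 1 and 2 occur only in wild type and 3 and 4 only in knockout.

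Over all genes, against 472 higher and 466 lower, DESeq2 called 804 and 809, the block fit 1171 and 1125, summed counts 158 and 116, and the fit without a filter 271 and 280. Leaving out 1 clone gave 294 to 558 higher and 272 to 535 lower. The other transporters, with 2 higher and 2 lower, had 4 and 4 by DESeq2 and by the block fit, and 1 higher with summed counts and with no filter (leaving out 1 clone, 1 to 4 higher and 2 to 3 lower). The substrate genes, with 9 higher and 5 lower, had 4 and 2 with summed counts and 10 lower in the block fit (leaving out 1 clone, 6 to 10 higher and 4 to 6 lower). By principal transcript length the TPM of Slc25a3 was 1086, that of Slc25a5 743 and that of Slc25a4 237. By the longest transcript Slc25a4 was at 269 TPM and Ucp2 at 399.98 TPM. The cause was not tested.

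Signs turned only for uncalled members with small differences. Without 1A and 2D the log2 fold change was 0.0024 for Slc25a5, 0.0762 for Slc25a22, 0.1786 for Slc25a38, 0.0185 for Slc25a3 and 0.0505 for Slc25a30. Summed counts gave 0.0029 for Slc25a22, and a minimum mean of 1 CPM gave 0.0005 for Slc25a51. Knockout number 3 against wild-type number 1 gave 0.1824 for Slc25a22 and -0.1188 for Slc25a29. Number 3 against number 2 gave -0.0672 for Slc25a25, 0.0665 for Slc25a22, -0.0258 for Slc25a29, -0.0224 for Slc25a17 and -0.0068 for Slc25a16. Number 4 against number 1 gave 0.0471 for Slc25a24, 0.0317 for Slc25a23, 0.006 for Slc25a38, 0.0454 for Slc25a51 and 0.0173 for Slc25a47. Number 4 against number 2 gave 0.1945 for Slc25a24, -0.0456 for Slc25a25, 0.1064 for Slc25a38, -0.0384 for Slc25a17 and 0.0003 for Slc25a3. Leaving out 1 clone gave ranges of -0.1298 to 0.0415 for Slc25a24, -0.002 to 0.0753 for Slc25a25, -0.0622 to 0.0831 for Slc25a22, -0.0872 to 0.0489 for Slc25a38, -0.0208 to 0.1364 for Slc25a29, -0.0084 to 0.0435 for Slc25a17, -0.0406 to 0.0244 for Slc25a51, -0.0026 to 0.0781 for Slc25a16, -0.0468 to 0.1706 for Slc25a42, -0.0208 to 0.0011 for Slc25a3 and -0.0633 to 0.0093 for Slc25a30. At these depths 3 counts are 0.109 to 0.158 CPM, which limits what can be said of the 11 untested members.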
